A study of Homo sapiens with 3 samples.

Results

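Eph receptors and their ephrin ligands were followed through 3 RNA sequencing libraries of cells labelled Hep3B, a hepatocellular carcinoma line. The set holds 10 of the 22827 genes in the deposited table: the receptors EPHA1, EPHA2, EPHA4, EPHB2, EPHB3 and EPHB4 and the ephrins EFNA1, EFNB1, EFNB2 and EFNB3. These genes were chosen from a measured value, the low EPHB2 count in the USP39 knockout, and were matched by symbol to the table's Ensembl identifiers. All 10 are in the table, and 6 had at least 10 counts in 1 or more libraries. Each of those 6 also had at least 10 counts in every library.

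The control library came from Hep3B cells of control genotype, the USP39-KO library from Hep3B cells with USP39 knocked out, and the SIRT7-KO library from Hep3B cells with SIRT7 knocked out. How the knockouts were made, whether each is a clone, and what the control cells received are not given in the labels. There is 1 library per group, so no difference has a replicate check and no p-value is given. Library totals were 19427940 counts for the control, 16630636 for USP39-KO and 16151522 for SIRT7-KO. Each targeted gene was still read in its own knockout: USP39 had 1066 reads in USP39-KO, 0.688 times the scaled control value, and SIRT7 had 608 reads in SIRT7-KO, 0.736 times. Of 10 hepatocyte markers 5, among them ALB and AFP, had no read in any library, and 7 had under 10. The summed level of this list was, like EPHB2, highest in the control: the sum was 9.32 counts scaled to library size (CPM) for the control, 2.86 for USP39-KO and 1.47 for SIRT7-KO, with HNF4A at 113, 29 and 7 reads and FGB at 55, 1 and 2. Of 7 epithelial markers 1, KRT19, had no read, and their sum, mostly KRT8 and KRT7, was 2697.5, 2162.9 and 2347.4 CPM. Sums of 7 endothelial markers lay between 2.98 and 4.58 CPM, of 7 fibroblast markers between 115 and 140 and of 6 leukocyte markers between 0.412 and 0.735. Single markers of a list differed. The leukocyte marker PTPRC, the endothelial KDR and the fibroblast COL1A2 had no read. In control, USP39-KO and SIRT7-KO the endothelial ERG had 67, 37 and 44 reads. The fibroblast markers COL1A1 and PDGFRB had 1978, 2071 and 1523 reads and 301, 217 and 326. The part of these markers in the differences between libraries was not tested. A listed 0 is a weak sign of absence in this table, since 7 of 81 ribosomal protein genes had no read in any library. That limit does not cover the hepatocyte markers SERPINA1, with 2, 0 and 1 reads, and TF, with 1, 2 and 0. The name Hep3B is from the labels, most of these hepatocyte markers were hardly read, and the identity of the cells was not tested.

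Eph receptors form the largest family of receptor tyrosine kinases, and their ephrin ligands stay attached to the surface of the neighbouring cell. Ephrin-A proteins are held by a lipid anchor and mainly bind EphA receptors. Ephrin-B proteins cross the membrane and mainly bind EphB receptors. Contact can signal into both cells, forward through the receptor kinase and in reverse through the ephrin, and it steers cell repulsion, adhesion, tissue boundaries and vessel formation. In epithelial cancers EPHA2 is often abundant, and EPHB2 and EPHB3 are known as targets of Wnt signalling in the intestine.

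Levels can be compared between genes only per length, as FPKM, which divides a count by the listed gene length and the library total. By this scale the 10 genes divide into 6 that were clearly read in the control and 4 near the limit of detection. EPHA2, EFNA1 and EPHB4 led, with 57.8, 28.7 and 21.7 FPKM in the control. EFNB1, EFNB2 and EPHB2 followed with 3.32, 2.33 and 1.62 FPKM. In the control the exact Poisson intervals of these 6 levels did not overlap between neighbours in the order. EFNB1 and EFNB2 overlapped in USP39-KO, with 2.76 FPKM (2.34 to 3.23) and 2.06 FPKM (1.75 to 2.42). EPHB2 moved down to the range of EFNB3 in both knockouts. EPHA1 and EFNB3 had 0.0653 and 0.0639 FPKM, from 6 and 4 reads, and could not be ordered. EPHB3 had 2 reads in the control, below the 3 counts that a reading of 0 allows, and EPHA4 had none in any library.

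**Figure D1:**
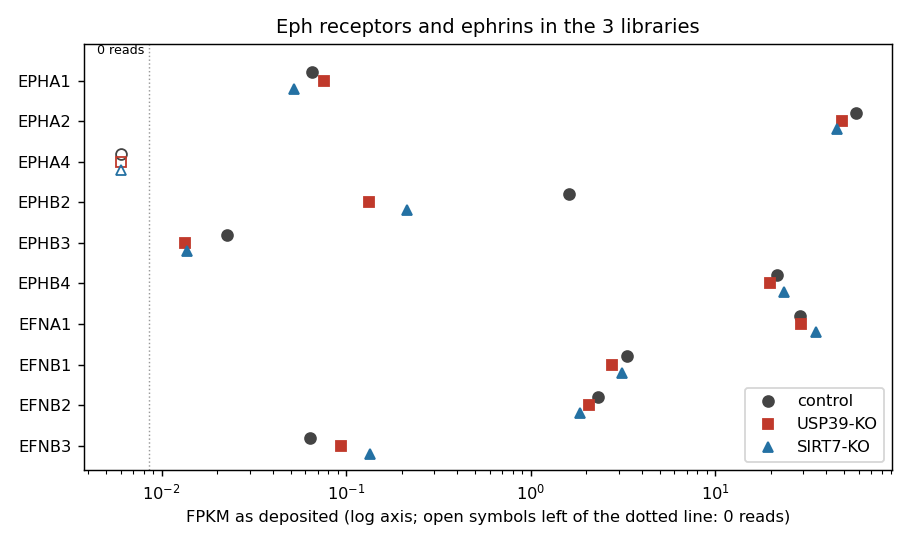
Length-scaled level (FPKM as deposited, log axis) of each member in the control (circles), USP39-KO (squares) and SIRT7-KO (triangles) libraries, 1 library each. EPHB2 is at 1.62 FPKM in the control against 0.133 and 0.215 in the knockouts, while the 3 symbols of EPHA2, of EPHB4 and of EFNA1 lie close together, and open symbols mark EPHA4 with 0 reads.

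The 3 EphB receptors of the set differ in the DNA just before their transcription starts, and their windows are shown because EPHB2 was low in both knockouts while EPHB4 was not. Each window is the 250 bases before the RefSeq start (GRCh38.p14), written 5′ to 3′ on the gene's own strand. Capitals mark GGGCGG, the core that SP and KLF family zinc finger proteins recognise, in either orientation. The EPHB2 window is chr1:22710588-22710837 on the plus strand, the EPHB3 window chr3:184561535-184561784 on the plus strand, and the EPHB4 window chr7:100827524-100827773 on the minus strand.
EPHB2: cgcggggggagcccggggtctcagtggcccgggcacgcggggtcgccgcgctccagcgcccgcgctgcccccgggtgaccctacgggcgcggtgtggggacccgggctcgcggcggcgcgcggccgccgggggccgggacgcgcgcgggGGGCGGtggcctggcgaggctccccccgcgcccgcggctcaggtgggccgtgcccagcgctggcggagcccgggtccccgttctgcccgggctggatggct
EPHB3: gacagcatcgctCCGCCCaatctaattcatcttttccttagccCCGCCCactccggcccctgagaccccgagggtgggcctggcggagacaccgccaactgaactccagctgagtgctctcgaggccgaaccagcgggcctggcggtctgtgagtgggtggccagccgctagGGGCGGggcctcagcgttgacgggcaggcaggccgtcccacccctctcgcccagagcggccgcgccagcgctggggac
EPHB4: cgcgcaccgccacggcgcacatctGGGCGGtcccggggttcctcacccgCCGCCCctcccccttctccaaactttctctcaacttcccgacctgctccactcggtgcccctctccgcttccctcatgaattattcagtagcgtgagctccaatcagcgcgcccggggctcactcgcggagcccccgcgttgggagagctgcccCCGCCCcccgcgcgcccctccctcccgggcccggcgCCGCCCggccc

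The EPHB2 window was the richest of these in G and C, at 84.8% with 42 CpG pairs, against 70% and 21 in EPHB3 and 72.8% and 29 in EPHB4. The median over all 35116 RefSeq windows of this length was 58% and 11 CpG pairs. EPHB2 held 1 GGGCGG, EPHB3 3 and EPHB4 4, and 42.6% of all windows hold at least 1. The E-box CACCTG, a sequence that Snail family repressors bind, was found once in EPHB2, at position -62 from the start. It was not found in EPHB3 or EPHB4. Of the other members, EFNB2, which was not called in any comparison, held it at -167, and EPHA1, with few reads, at -80. CACCTG occurs in 17.5% of all windows. For the TCF site that answers Wnt signalling, only the forms CTTTGAA and CTTTGAT were searched. Neither was found in the 3 EphB windows, and 5.94% of all windows hold either. The AP-1 site TGANTCA (6.57% of all windows) and TATAAA (10.7%) were also not found in them. All motifs were searched on both strands, no 2 matches in these windows overlap, and a match or its lack describes only these letters.

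EPHB2, a receptor for B-class ephrins on chromosome 1 (22710839 to 22921500, plus strand, in GENCODE 29), had 200 control reads, 14 in USP39-KO and 22 in SIRT7-KO. The levels were 1.62 FPKM (1.41 to 1.86), 0.133 (0.0726 to 0.223) and 0.215 (0.135 to 0.325). The control stood far above both knockouts, which lay close to each other. Scaled to library size, EPHB2 was 12.1-fold lower in USP39-KO than in the control (95% counting interval 7.05 to 22.5), which is the difference that chose these genes. In SIRT7-KO it was 7.64-fold lower (4.91 to 12.5). Both ratios use the same control library, so a high reading there would lower both. Between the knockouts the level differed by 1.58-fold, lower in USP39-KO, with an interval from 0.775 to 3.35 that includes no difference. The annotated span of EPHB2 shares 1137 bases with the antisense gene AL512444.1, which has no counts of its own. The strand setting of the counting is unknown, and the part of this overlap in the EPHB2 reads was not tested. Antisense genes also overlap other members, among them EFNB2 by 30484 bases and EPHA2 by 877.

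A call of higher or lower needed a difference of 2-fold or more on the log2 scale together with an exact counting interval that excluded equality. By that rule 1 of the 6 measured members, EPHB2, was lower in USP39-KO and none was higher, where 3.37% of 12726 genes were lower and 1.49% higher. In SIRT7-KO again 1 of 6, EPHB2, was lower and none higher, where 4.05% of genes were lower and 3.02% higher. Between the knockouts no member was called, where 3.51% of genes were above and 5.03% below their SIRT7-KO level. Nothing is read from the first count, since EPHB2 fixed it. The SIRT7-KO count is not read either, since EPHB2 was chosen against the same control library. The median log2 ratio of the 6 members was -0.19 for USP39-KO, -0.23 for SIRT7-KO and -0.18 between the knockouts. Over all measured genes it was -0.002, -0.010 and 0.004. The members' medians include EPHB2, which chose the set, so nothing is read from them. The other measured members lay between -0.36 and 0.28 in the comparisons against control.

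**Figure D2:**
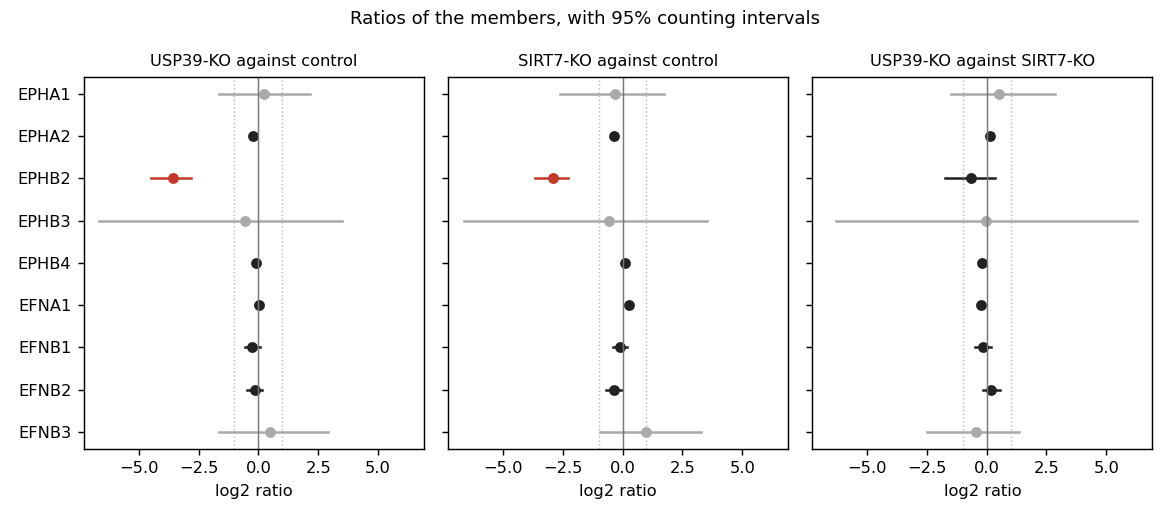
Log2 ratio of each member with reads (points) and its exact 95% counting interval (lines) in the 3 comparisons, with dotted lines at 2-fold and members under 10 counts in grey. EPHB2 (red) is at -3.55 in USP39-KO and -2.91 in SIRT7-KO, and the other measured members lie between -0.36 and 0.28 in these comparisons.

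Differences under 2-fold were read against the counting interval alone. In USP39-KO the interval excluded equality for 3 of 6 members, EPHA2, EPHB4 and EPHB2, and it did so for 44.4% of all genes. EPHB2 was chosen by this comparison, so nothing is read from that count. The same count was 5 of 6 in SIRT7-KO, against 56.1% of all genes, and 3 of 6 between the knockouts, against 59.1%. The SIRT7-KO count includes EPHB2 and uses the same control library, so nothing is read from it either. With 1 library each, such small differences may lie within the spread between cultures, which was not measured.

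Among the EphA receptors, EPHA2 (chromosome 1, 16124337 to 16156087, minus strand) had 4671, 3386 and 3065 reads in control, USP39-KO and SIRT7-KO. EPHA2 is the main receptor of EFNA1 in many epithelia and can act with or without ligand. After scaling it was highest in the control, 1.17-fold lower in USP39-KO (1.12 to 1.22) and 1.28-fold lower in SIRT7-KO (1.22 to 1.34). EPHA1 had 6, 6 and 4 reads, too few to compare. The annotated spans of EPHA1 and ZYX, a gene on the other strand with 2530 control reads, share 823 bases, and the strand setting of the counting is unknown, so the few EPHA1 reads are uncertain. EPHA4, which binds ephrins of both classes, had 0 reads in each library, which allows up to 0.0204, 0.0239 and 0.0246 FPKM.

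The EphB class was mostly EPHB4 (chromosome 7, 100802565 to 100827521, minus strand), known as the venous partner of EFNB2 in vessels and also found in carcinomas. EPHB4 had 2701, 2115 and 2429 reads. It was 1.08-fold lower in USP39-KO (1.02 to 1.15) and 1.07-fold higher in SIRT7-KO (1.01 to 1.13). Log2 ratios of the receptors EPHB4 and EPHB2 were thus -0.11 and -3.55 in USP39-KO and 0.10 and -2.91 in SIRT7-KO. EPHB4 was 1.16-fold lower in USP39-KO than in SIRT7-KO (1.09 to 1.23). Its annotated span shares 702 bases with SLC12A9 on the opposite strand, which had 595, 542 and 595 reads. EPHB3, which acts with EPHB2 in sorting intestinal crypt cells, had 2, 1 and 1 reads.

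EFNA1 (chromosome 1, 155127460 to 155134857, plus strand), the A-class ligand best known as the partner of EPHA2, had 1416, 1234 and 1442 reads. In USP39-KO its scaled level was 1.03 times the control (0.952 to 1.11). In SIRT7-KO it was 1.21-fold higher (1.13 to 1.31), the opposite direction to EPHA2 in that library. Between the knockouts EFNA1 was 1.18-fold lower in USP39-KO (1.09 to 1.27).

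B-class ligands were read at lower levels. EFNB1 (chromosome X, 68828997 to 68842147, plus strand), the gene of craniofrontonasal syndrome and a ligand of EPHB2, had 214, 152 and 167 reads. Its interval included equality in every comparison, and its scaled level was 0.838 times the control in USP39-KO (0.677 to 1.04) and 0.929 times in SIRT7-KO (0.754 to 1.14). EFNB2 (chromosome 13, 106489731 to 106535662, minus strand), the arterial ligand of EPHB4, had 202, 153 and 133 reads. It was 0.894 times the control in USP39-KO (0.72 to 1.11) and 0.784 times in SIRT7-KO (0.625 to 0.98). EFNB3, an ephrin of the nervous system, had 4, 5 and 7 reads, and none of its ratios could be told from equality.

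Levels were next summed over all 22 Eph receptors and ephrins, the 10 members and the 12 other family genes, to see how much of each class the members make up. EPHA2 made up 99.1%, 98.7% and 99.2% of EphA FPKM in control, USP39-KO and SIRT7-KO. EPHB2 made up 6.96%, 0.664% and 0.907% of EphB FPKM in these libraries, and EPHB4 92.9%, 99.1% and 99%. The EphB sum was 23.3 FPKM in the control (22.5 to 24.2) and 23.7 in SIRT7-KO (22.7 to 24.6), with overlapping intervals. It was 20 FPKM in USP39-KO (95% counting interval 19.2 to 20.9, from Poisson variances), where EPHB4 was also lower. EPHB2 shares depend on gene length: the authors list 6341 bases, while the union of GENCODE 29 exons is 12516 bases, which would put EPHB2 at 0.823 FPKM in the control. For 7 of the 10 members the listed length equals that union.

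The EphA sum was 58.4 FPKM in the control (56.7 to 60), 49.6 in USP39-KO and 46 in SIRT7-KO (44.4 to 47.6). Ephrin-A genes summed to 37.9 FPKM in the control (36 to 39.7), 38.5 in USP39-KO and 48.6 in SIRT7-KO (46.3 to 51). Receptor to ligand ratios of the A class were thus 1.54, 1.29 and 0.945, so the ratio was lowest in SIRT7-KO, where the intervals of the ligand and receptor sums overlap. For the B class the ratios were 4.08, 4.07 and 4.64, and the ephrin-B sums 5.72, 4.91 and 5.1 FPKM had overlapping intervals.

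**Figure D3:**
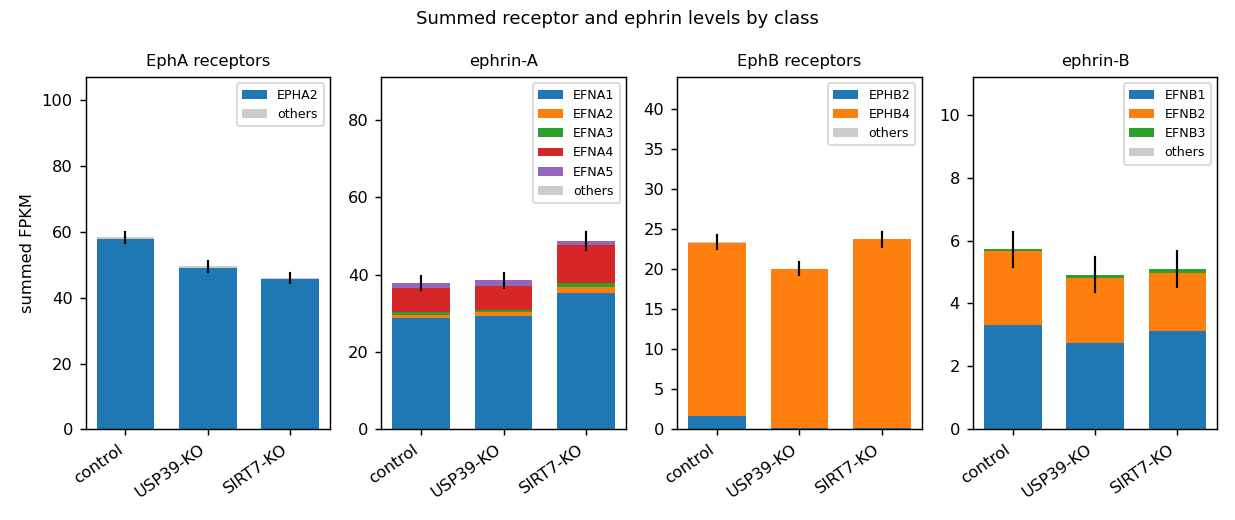
Summed FPKM of EphA receptors, ephrin-A, EphB receptors and ephrin-B in each library, stacked by gene (the least abundant genes are pooled in grey), with black lines for the 95% counting interval of the sum and a separate vertical scale in each panel. EPHA2 and EPHB4 fill nearly all of their classes, and the ephrin-A sum is 48.6 FPKM in SIRT7-KO against 37.9 in the control.

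Of the 12 other family genes, 7 were measured, and none was called in USP39-KO. In SIRT7-KO, 1 was higher and 2 were lower, where 3.02% and 4.05% of all genes were. The USP39-KO shares were 1.49% and 3.37%. EFNA2 had 30, 36 and 54 reads in control, USP39-KO and SIRT7-KO and was 2.14-fold higher in SIRT7-KO (1.35 to 3.47). EPHA5 had 39, 37 and 15 reads and was 2.18-fold lower there (1.18 to 4.26), and EPHA10 had 11, 13 and 1. Between the knockouts 2 of the 7, EPHA5 and EPHA10, were called higher in USP39-KO and 1, EFNA3, lower. Over all genes 3.51% were higher and 5.03% lower in that comparison. The EPHA10 call rests on 13 reads against 1. EFNA4, the most abundant of these genes, had 155, 130 and 199 reads, 1.53-fold higher in SIRT7-KO (1.23 to 1.9), which is short of the size rule. EFNA5 had 142, 149 and 102 reads and EPHA7 30, 27 and 21, and neither was called in any comparison. EFNA3 had 34, 16 and 36 reads and was called lower in USP39-KO than in SIRT7-KO (2.27-fold, 1.23 to 4.38). EPHA3, EPHA6 and EPHB6 had no reads, and EPHA8 and EPHB1 at most 2 and 3.

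EFNA4, EFNA3 and EFNA1 lie side by side on chromosome 1 within 71.1 kb. All were above their control level in SIRT7-KO, with log2 ratios of 0.61, 0.33 and 0.28, although the interval of EFNA3 included 0. The 3 nearest measured genes on each side were read too, a choice made after the values were seen. They were mixed. DCST2, ADAM15, a membrane metalloprotease gene, SLC50A1, a sugar transporter gene, and KRTCAP2 had SIRT7-KO log2 ratios of 0.81, 0.39, 0.29 and 0.74 with intervals above 0. DCST1 and DPM3 had -0.30 and 0.07 with intervals that included 0. None of these 6 genes was called against the control.

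Around EPHB2 the neighbouring genes were much closer to their control level than EPHB2 was. The nearest measured neighbours on either side, ZBTB40 at 180 kb and the histone demethylase gene KDM1A at 97.9 kb, had log2 ratios of 0.11 and -0.23 in USP39-KO and 0.05 and -0.09 in SIRT7-KO. CDC42, a small GTPase gene and itself an effector of Eph signalling, had -0.11 and -0.09, and LUZP1 -0.10 and -0.12. HSPG2, the perlecan gene, had -0.38 in USP39-KO and 0.56 in SIRT7-KO. The serotonin receptor gene HTR1D, 270 kb away, had 86, 45 and 38 reads, with log2 ratios of -0.69 (-1.25 to -0.16) and -0.92 (-1.52 to -0.36). None of these 6 neighbours was called against the control. Between ZBTB40 and EPHB2 lie 4 protein-coding genes under 10 counts, among them the receptor gene EPHA8 with 0, 1 and 2 reads.

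**Figure D4:**
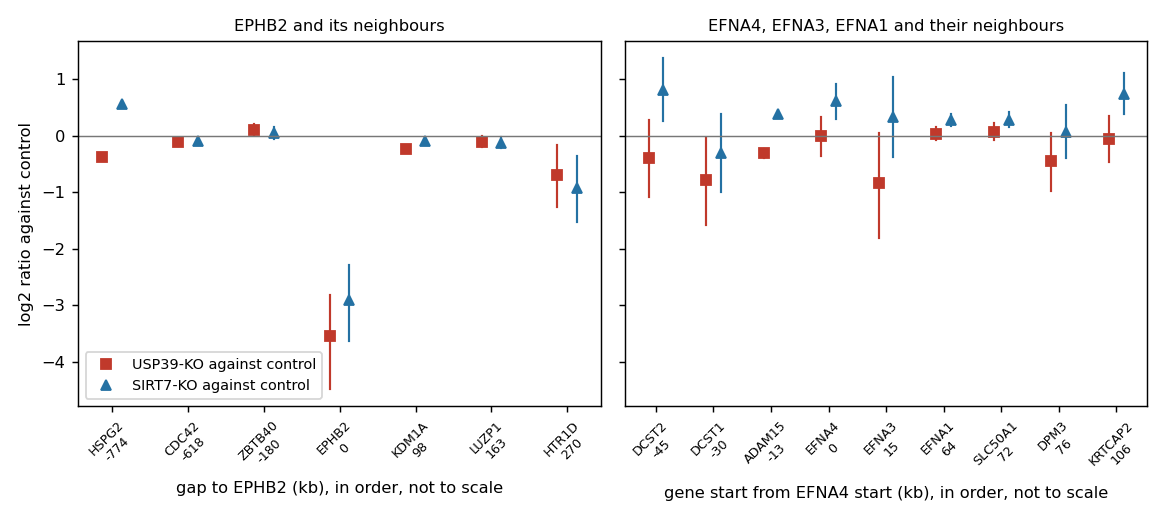
Log2 ratio against control (points, with exact 95% counting intervals) for USP39-KO (squares) and SIRT7-KO (triangles), with genes in chromosome order and the distance in kb under each name. EPHB2 stands apart from its 6 measured neighbours, of which HTR1D has the next lowest ratios, and around EFNA4, EFNA3 and EFNA1 the SIRT7-KO ratios run from -0.30 (DCST1) to 0.81 (DCST2).

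The genes whose pattern over the 3 libraries was nearest to EPHB2 were found by the distance between the 2 log2 ratios against control, among 10044 protein-coding genes that reached 100 counts. RBPMS, an RNA-binding protein gene, had 162, 12 and 19 reads in control, USP39-KO and SIRT7-KO (distance 0.13). CHRNA4, a nicotinic acetylcholine receptor subunit, had 112, 9 and 12 reads (0.22), and THRB, the thyroid hormone receptor beta, 115, 9 and 9 (0.49). CTTNBP2 with 114, 11 and 6 reads and the death-associated kinase gene DAPK1 with 660, 102 and 78 were farther, at 1.10 and 1.11. Likeness here rests on 3 libraries and a shared control. The intervals of EPHB2 itself ran from -4.49 to -2.82 in USP39-KO and from -3.64 to -2.29 in SIRT7-KO. The ratios of RBPMS, CHRNA4 and THRB lay inside both, so the order of these genes is not read. DAPK1 in USP39-KO, at -2.45, and CTTNBP2 in SIRT7-KO, at -3.90, lay outside. The counting error of the distances was not computed.

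**Figure D5:**
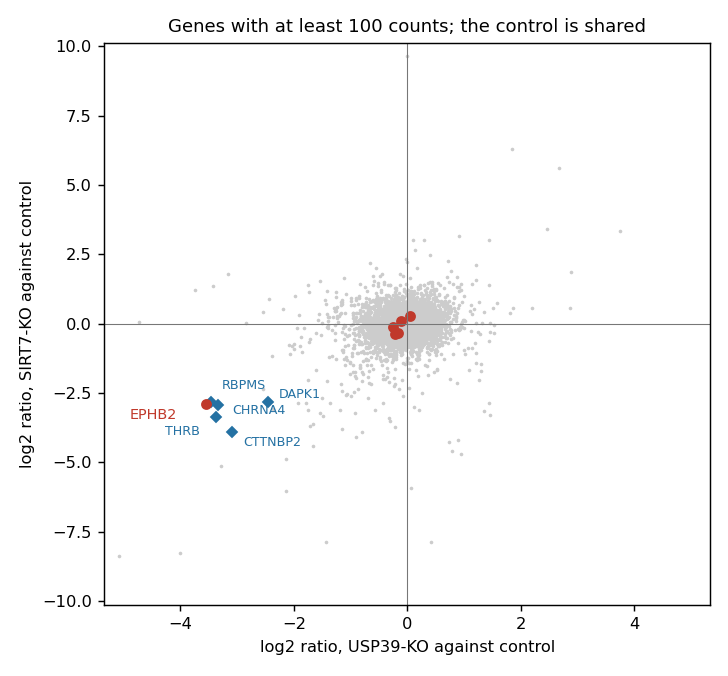
Log2 ratio in USP39-KO (horizontal) against that in SIRT7-KO (vertical) for genes that reached 100 counts (grey), with the 6 measured members in red and the 5 genes nearest to EPHB2 as blue diamonds. EPHB2 lies at -3.55 and -2.91 beside RBPMS and CHRNA4, the other members lie near the centre, and the axes share the control library.

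Genes that carry the Eph signal inside the cell were read from a list of 38 kinases, adaptors and GTPase regulators, of which 35 were measured. In USP39-KO 1 was lower and none higher, and in SIRT7-KO 2 were lower and 1 higher, with median log2 ratios of 0.02 and -0.04. These counts are near the shares over all genes, which were 3.37% lower and 1.49% higher in USP39-KO and 4.05% and 3.02% in SIRT7-KO. VAV3, an exchange factor for small GTPases that Eph receptors recruit, was lower in both, with 163 control reads, 68 in USP39-KO (2.03-fold lower, 1.52 to 2.74) and 52 in SIRT7-KO (2.63-fold, 1.92 to 3.67). CHN2, a Rac-inactivating chimaerin, had 32, 15 and 0 reads, and the interval of its SIRT7-KO ratio reached up to 0.145 times the control. KALRN, another exchange factor, had 82, 41 and 175 reads and was 2.54-fold higher in SIRT7-KO (1.94 to 3.34). The related chimaerin CHN1 had 180, 283 and 94 reads, called only between the knockouts (2.99-fold higher in USP39-KO, 2.36 to 3.81), and the adaptor GRB7 was called lower there (2.16-fold). KALRN was also called lower there (4.3-fold, 3.05 to 6.21) and CHN2 higher. Of the 35 genes 2 were thus higher in USP39-KO than in SIRT7-KO and 2 lower, where 3.51% and 5.03% of all genes were. RHOA, the most abundant of the list at 210 FPKM in the control, had log2 ratios of 0.09 and 0.05 against control.

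Of 9 measured genes of ephrin reverse signalling, 1 was called lower in USP39-KO, where 3.37% of all genes were, and none was called in SIRT7-KO. This gene was PARD6A, a polarity protein gene, with 28, 6 and 15 reads (3.95-fold lower in USP39-KO, 1.61 to 11.7). Intervals excluded equality for 3 of the 9 in USP39-KO, against 44.4% of all genes, and for 5 of the 9 in SIRT7-KO, against 56.1%. The PDZ adaptor SDCBP, their most abundant gene, had log2 ratios of 0.19 and 0.33. Of 14 measured genes for shedding, endocytosis and dephosphorylation of Eph receptors and ephrins, none was called against the control. Over all genes 3.37% were lower and 1.49% higher in USP39-KO, and 4.05% and 3.02% in SIRT7-KO. In that list 1, FLOT1 with 9, 4 and 15 reads, was called lower in USP39-KO than in SIRT7-KO, where 5.03% of all genes were. FLOT1 reached the count minimum only in SIRT7-KO, where it was highest, so nothing is read from this call. The phosphatase PTPN11 was the most abundant of the list at 49.9 FPKM.

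Wnt target genes were read because EPHB2 and EPHB3 are known among them in the intestine. Of 14 measured, 2 were lower in USP39-KO and 4 in SIRT7-KO, against 3.37% and 4.05% of all genes, and none was higher, against 1.49% and 3.02%. Their median log2 ratios were -0.04 and -0.43. Whether the list stands apart from other genes was not tested. RNF43, a ubiquitin ligase that removes Wnt receptors, had 123, 27 and 14 reads in the 3 libraries, 3.86-fold lower in USP39-KO (2.53 to 6.09) and 7.38-fold lower in SIRT7-KO (4.24 to 13.9). TCF7, a transcription factor of the pathway, had 93, 38 and 7 reads, 2.07-fold (1.41 to 3.11) and 11.2-fold lower (5.21 to 28.5). Directly between the knockouts TCF7 was 5.38-fold higher in USP39-KO (2.37 to 14.3), while the intervals of RNF43 and EPHB2 included equality. AXIN2, a feedback inhibitor, had 561, 258 and 228 reads and was called in SIRT7-KO only (2.07-fold lower, 1.77 to 2.42), with 1.84-fold in USP39-KO (1.59 to 2.14). NKD1 had 50, 46 and 15 reads and was called in SIRT7-KO and between the knockouts, where SOX9 with 184, 89 and 237 reads was called lower in USP39-KO. Between the knockouts 2 of the 14 were called higher in USP39-KO and 1 lower, where 3.51% and 5.03% of all genes were. MYC, the most abundant of the list, had log2 ratios of -0.17 and -0.24. Whether these genes and EPHB2 are linked was not tested.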

How the data were processed

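Total RNA, taken up in Trizol, went into TruSeq RNA libraries, per the labels' protocols. Aligner, counting program, build, annotation and strand setting: not given in the sources used here. Raw read counts per gene were deposited by the authors with a gene length in bases, per the file headers. FPKM deposited by the authors equal counts over length and library total, checked on every gene with reads (largest relative difference 1.4e-07). Symbols were matched through Ensembl identifiers, of which 3178 had none. No column lacked a library.

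The members and the gene lists were chosen with earlier results of these data known. Libraries were scaled with TMM factors from edgeR 4.0.16 (1.000037, 0.98965 and 1.010422 for control, USP39-KO and SIRT7-KO). Log2 ratios used a prior of 0.5 counts, and folds and their 95% exact (Clopper-Pearson) intervals used the counts alone. Intervals and floors of 3 counts cover counting error only. A gene with 10 counts in any library was measured, and a call needed 2-fold and an interval excluding equality. With 1 library per group, no count model was tested. The steps were tested on simulated data. All members are named. Of the lists, called members with at least 20 counts (at most 5 a list) and the most abundant are named, and others, such as FLOT1, EPHA10 and genes that were not called, after their values were seen. Promoter windows and motifs were chosen after the values were seen, too. Coordinates are from GENCODE 29 and promoters from RefSeq, where 9 of 10 members matched. Protein sequences were not used here. Other scalings (library totals, DESeq2 1.42.0 size factors, upper quartile), a prior of 2, other count minimums and a 1.5-fold rule were tried.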

Additional observations from a re-analysis of the deposited data

How the results depend on the processing

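All 108 member ratios recomputed with library totals, DESeq2 size factors, upper quartile scaling or a prior of 2 counts stayed inside their counting intervals, and no called member changed sign. Counts of called members were the same under each scaling, prior, count minimum and the 1.5-fold rule. With at least 100 counts, the share of all genes called higher and lower was 0.471% and 1.24% in USP39-KO, 1.34% and 2.06% in SIRT7-KO, and 2.17% and 2.76% between the knockouts, since genes with few reads leave the comparison. With at least 300 counts, 1 of the 5 genes nearest to EPHB2 was kept, because the others have fewer reads. The GENCODE 29 length of EPHB2, an alternative chosen after seeing the data, gave 0.823, 0.0673 and 0.109 FPKM in control, USP39-KO and SIRT7-KO. Calls of family and list genes with under 100 reads were lost at the minimum of 100, for 3 of 3 other family genes and 2 of 4 Wnt targets called in SIRT7-KO. The calls of PARD6A, FLOT1, DDR1 and TEK were lost too. Depth limits EPHA1, EPHA4, EPHB3 and EFNB3, whose differences were not detectable. No paired analysis was possible because each group has 1 library.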

Other observations

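Other receptor tyrosine kinases were read beside the Eph family. Of 35 listed, 20 were measured. In USP39-KO 2 were lower and 1 higher, and in SIRT7-KO none was lower and 2 were higher, with median log2 ratios of 0.02 and 0.08. Over all genes 3.37% were lower and 1.49% higher in USP39-KO, and 4.05% and 3.02% in SIRT7-KO. Directly between the knockouts 2 of the 20, ERBB3 and DDR2, were called lower in USP39-KO and none higher, where 5.03% and 3.51% of all genes were. ERBB3, a partner of other ERBB receptors, had 142, 39 and 95 reads in the 3 libraries (control, USP39-KO, SIRT7-KO) and was 3.08-fold lower in USP39-KO (2.15 to 4.52). The collagen receptor DDR2 had 51, 56 and 120 reads and was 2.8-fold higher in SIRT7-KO (2 to 3.97), and the related DDR1 had 7, 16 and 18. DDR1 and TEK have few reads and were named after their values were seen. Each reached the count minimum only in libraries where it was higher, so nothing is read from their calls. With at least 100 counts, 1 gene of this list was called in USP39-KO and 1 in SIRT7-KO. TEK, the angiopoietin receptor of endothelial cells, had 10, 1 and 3 reads. EGFR, the most abundant of the list at 53.1 FPKM in the control, had log2 ratios of -0.10 and -0.26. In the control EGFR was thus near EPHA2 in length-scaled level, at 53.1 against 57.8 FPKM.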
